A study of Mus musculus with 3 samples.

Results

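The genes described here encode the proteasome: its subunits, its activators, its inhibitor and the chaperones that assemble it. They were chosen by name, as every gene symbol that starts with Psm followed by a letter from a to g and a number, which gave 49 of the 31053 mouse genes counted. Psmb8, Psmb9, Psmb10, Psme1 and Psme2, the genes of the immunoproteasome and of its activator, were set against the rest. The study followed the mouse cells that enter human skin placed under the skin of mice and the effect of vitamin D3 on cultured cells. It gave 3 libraries of single-cell RNA, 1 for each condition, so no difference below has a replicate check and none has a test.

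Co-Mac and VD-Mac were bone marrow cells of C57/BL6 mice grown with GM-CSF for 7 days. VD-Mac then received 1,25 dihydroxy-cholecalciferol at 1 μM for 24 hours, and Co-Mac was left untreated. The hSTSG library holds cells of skin grafts taken out on day 14 after implantation under the skin of wild-type mice, with 5 mice pooled. Human genes are not in the gene list, so no human transcript is given. After the cell filter, 7257 of 7866 barcodes of Co-Mac were kept, 8825 of 9794 of VD-Mac and 2144 of 2644 of hSTSG. These cells held 132574308, 116461484 and 22646544 molecules (UMIs, each counted once by its molecular identifier), with a median per cell of 15804, 12089 and 6637.5. The libraries shared few kept barcodes, 15 between the cultures, 3 between Co-Mac and hSTSG and 6 between VD-Mac and hSTSG.

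The proteasome is a barrel of stacked rings that cuts proteins marked with ubiquitin. A cap unfolds the marked protein and feeds it into the barrel, where catalytic subunits of the inner rings do the cutting. In immune cells, and in others after interferon, the standard catalytic subunits are replaced by immune forms that yield peptides suited to display on MHC class I, and dendritic cells are known for a high content of these forms.

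Levels are counts scaled to 1000000 UMIs (CPM) over all kept cells of a library or a cell class. In this assay UMIs count 3′ ends of molecules, so levels were not divided by gene length. Intervals in parentheses are exact 95% limits of counting error and cover nothing else. Cells of each library were clustered alone, and clusters were named after their markers with "-like", as described with the processing. Although the cultures are labelled as macrophages, macrophage-like cells made up 27.3% of Co-Mac and 12.5% of VD-Mac, while DC-like cells made up 36.1% and 37.7%. Among named clusters, those led by mitosis genes took different names, macrophage-like in Co-Mac and neutrophil-precursor-like in VD-Mac. Without these mitotic clusters, macrophage-like cells made up 13.4% and 12.5%. Mki67, one of the leading genes of the mitotic clusters, was not confined to them. It had 286 CPM in a precursor cluster of Co-Mac led by Prtn3 and Elane, beside 240 CPM in the mitotic cluster of Co-Mac. No name was given to 13.4% of the Co-Mac cells and 24.6% of the VD-Mac cells. Cell cycle genes were also among the leading genes of shallow unnamed clusters. In VD-Mac these were Cdk1, Pclaf and Birc5 in a cluster of 1441 cells with a median of 1833 UMIs. In Co-Mac it was Pbk in a cluster of 556 cells with a median of 2825 UMIs. Their Mki67 levels were 52.3 and 33.6 CPM, and they are not part of the mitotic clusters below.

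Between the cultures, the immune catalytic genes stood higher in VD-Mac while most of the standard machinery stood lower. Of the 49 genes, 46 reached 10 CPM in at least 1 culture, and these 46 reached it in hSTSG too. At least 25% higher in VD-Mac were 2 of the 46, Psmb8 and Psmb9, beside 14.2% of all 7732 genes that reached 10 CPM. At least 20% lower, the same step downwards, were 11 of the 46, beside 27.9% of all genes. They were Psma4, Psma6, Psmb5, Psmc1, Psmd1, Psmd2, Psmd3, Psmd5, Psmd7, Psmd14 and Psme3. Both counts are near or below the share over all genes in their direction, so neither sets the family apart. At 2-fold, 0 of the 46 were higher and 0 were lower, beside 2.16% and 4.63% of all genes. Changes in these genes between the cultures were thus all smaller than 2-fold at the level of the whole library. The count of lower genes was 7 with the cell classes of VD-Mac weighted as in Co-Mac and 6 with the mean over cells, and the count of higher genes was 1 under both. The share over all genes under these alternatives is not given here, so these counts are not set against a shift of all genes.

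**Figure D1:**
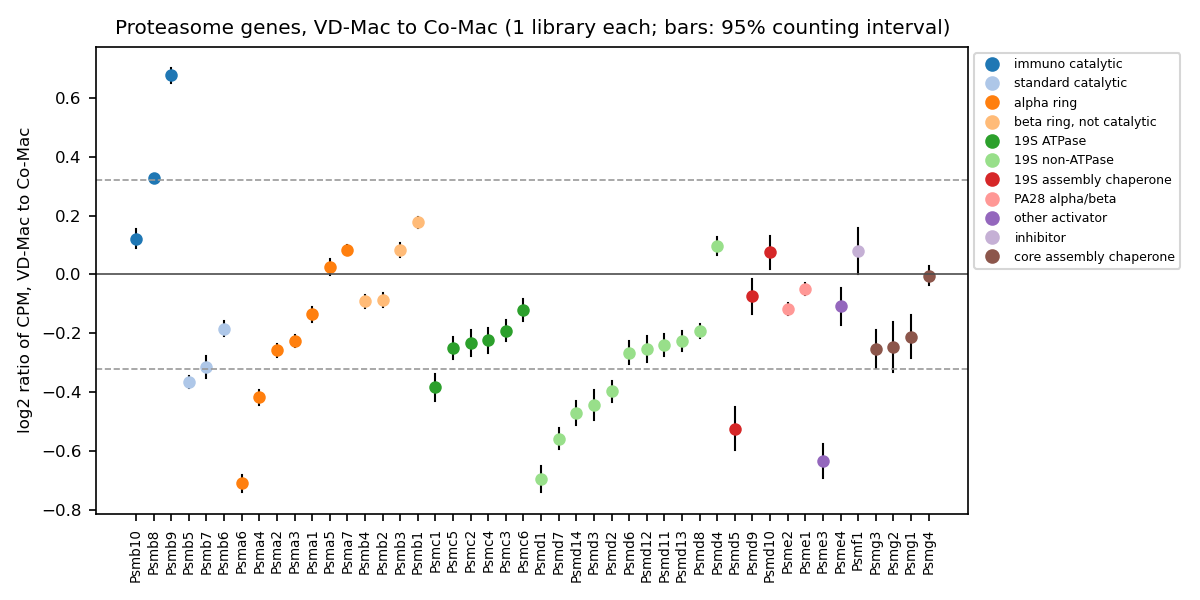
Log2 ratio of CPM of VD-Mac to Co-Mac (y axis) for each of the 46 genes with at least 10 CPM (x axis), coloured by role, with 1 library a culture. Bars are 95% counting intervals and dashed lines mark 25% higher and 20% lower; Psmb9 and Psmb8 lie above the upper line and 11 genes below the lower one.

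The barrel is built from alpha rings, which gate the entry, and beta rings, which hold the catalytic sites. Summed over the 31 subunits of the standard barrel and cap, the level was 5416 CPM in Co-Mac, 4782 CPM in VD-Mac and 3463 CPM in hSTSG. The median log2 ratio of VD-Mac to Co-Mac over these 31 subunits was -0.23, with 26 below 0, and the ratios ran from -0.71 to 0.18. Over all genes the median was -0.10, so part of this shift is shared by the library as a whole. The median stayed below 0 under every alternative scaling and filter tried, but it shrank to -0.15 with scaling to the median gene, to -0.14 without mitochondrial and ribosomal genes and to -0.11 with the mean over cells.

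Among the alpha subunits, the median level was 242 CPM in Co-Mac, 183 CPM in VD-Mac and 121 CPM in hSTSG. Psma7 was the most abundant of the 7 in each library, with 426, 452 and 241 CPM. Its log2 ratio of VD-Mac to Co-Mac was 0.08 (0.07 to 0.10). Psma6 had 222 CPM in Co-Mac, 136 CPM in VD-Mac and 111 CPM in hSTSG, and its ratio of -0.71 (-0.74 to -0.68) was the lowest of the barrel and cap. So neighbours within the same ring differed in how their transcripts changed. The beta subunits without a catalytic site, Psmb1 to Psmb4, had a median of 253 CPM in Co-Mac, 237 CPM in VD-Mac and 154 CPM in hSTSG. Psmb1 had 346, 392 and 185 CPM, and its ratio between the cultures, 0.18 (0.16 to 0.20), was the highest of the standard subunits.

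In the cap, an ATPase ring unfolds the substrate and the subunits around it bind ubiquitin or remove it. The 6 ATPase subunits lay between 74.4 CPM (Psmc1) and 107 CPM (Psmc3) in Co-Mac and between 57.1 and 93.3 CPM in VD-Mac, with the same genes at both ends. Graft levels of the ATPases ran from 50.2 CPM (Psmc2) to 96.5 CPM (Psmc3). All 6 were lower in VD-Mac than in Co-Mac, and of them Psmc1 was over 20% lower. The 11 other cap subunits spanned a wider range, from 56.4 CPM (Psmd3) to 237 CPM (Psmd8) in Co-Mac. Psmd1, a large scaffold of the cap, had 88.2 CPM in Co-Mac, 54.5 CPM in VD-Mac and 123 CPM in hSTSG. Its ratio of VD-Mac to Co-Mac was -0.70 (-0.74 to -0.65), beside its higher level in the graft. Psmd7, the partner of the subunit that removes ubiquitin, had 133, 90.3 and 87.2 CPM, with a ratio of -0.56 (-0.59 to -0.52). Psmd4, a ubiquitin receptor, went the other way between the cultures, with 137, 146 and 100.4 CPM and a ratio of 0.10 (0.07 to 0.13), which turned to -0.09 with the classes of VD-Mac weighted as in Co-Mac.

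The catalytic sites come in pairs of genes, a standard form and the immune form that takes its place: Psmb5 and Psmb8, Psmb6 and Psmb9, Psmb7 and Psmb10. Psmb8 had 588 CPM (584 to 592) in Co-Mac, 738 CPM (733 to 743) in VD-Mac and 136 CPM (131 to 140) in hSTSG. Psmb9 had 175 CPM (173 to 178), 280 CPM (277 to 283) and 64.7 CPM (61.4 to 68.1). Psmb10 had 124 CPM (123 to 126), 135 CPM (133 to 138) and 77.0 CPM (73.4 to 80.7). All 3 immune forms were highest in VD-Mac and lowest in the graft. The log2 ratio of VD-Mac to Co-Mac was 0.33 (0.31 to 0.34) for Psmb8, 0.68 (0.65 to 0.70) for Psmb9 and 0.12 (0.09 to 0.15) for Psmb10, and it kept its sign under every alternative. Psmb8 was thus only just past the line of 25% higher, and Psmb9 stood at 1.60-fold. Psmb8 fell short of that line over all deposited barcodes, without doublets, with the mean over cells and with weighted classes, and its lowest ratio was 0.12. The lowest ratio of Psmb9 was 0.38.

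The standard forms moved in the opposite direction between the cultures. Psmb5 had 353, 274 and 129 CPM in Co-Mac, VD-Mac and hSTSG, with a log2 ratio of VD-Mac to Co-Mac of -0.37 (-0.39 to -0.35). Psmb6 had 226, 199 and 168 CPM, with a ratio of -0.18 (-0.21 to -0.16). Psmb7 had 109, 87.5 and 95.2 CPM, with a ratio of -0.31 (-0.35 to -0.28). Summed, the immune forms came to 888, 1154 and 277 CPM and the standard forms to 688, 560 and 392 CPM, so that immune transcripts led in both cultures and standard ones in the graft.

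As a share of the UMIs of all 6 catalytic genes, the immune forms made up 56.4% (56.1 to 56.6) in Co-Mac, 67.3% (67.1 to 67.5) in VD-Mac and 41.4% (40.6 to 42.2) in hSTSG. For Psmb8 with Psmb5 the share was 62.5%, 73.0% and 51.2%. For Psmb9 with Psmb6 it was 43.6%, 58.4% and 27.8%, and for Psmb10 with Psmb7 53.4%, 60.7% and 44.7%. Each pair gave the same order of libraries, VD-Mac over Co-Mac over hSTSG, and no intervals overlapped within a pair. These are shares of transcripts, and the protein content of the particles was not measured.

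Much of the level of these genes lay with the cell class. In DC-like cells the immune share was 78.7% (78.4 to 78.9) in Co-Mac, 79.2% (78.9 to 79.5) in VD-Mac and 73.5% (70.1 to 76.7) in hSTSG, where the class held 33 cells. Macrophage-like cells had 41.5% (41.1 to 41.8), 51.1% (50.5 to 51.7) and 34.6% (33.5 to 35.7), and without its mitotic cluster Co-Mac had 34.6% (34.1 to 35.2), the level of the graft class as a whole. That graft class was mixed: its cluster led by Mmp12, Gpnmb and Spp1 had 32.1% (30.9 to 33.3). Its cluster with Lyve1 and Cd163 among the leading genes had 47.4% (44.5 to 50.4). DC-like cells thus carried mostly immune forms in each of the 3 libraries, although the graft class was not found under 2 of the alternatives, and macrophage-like cells of Co-Mac and of the graft mostly standard forms. Neutrophil-precursor-like cells had 36.4% (35.9 to 37.0) in Co-Mac and 54.7% (54.2 to 55.2) in VD-Mac, and granulocyte-like cells 37.0% (34.8 to 39.4) and 46.8% (45.6 to 48.0). Most cells of the precursor class of VD-Mac were of its mitotic cluster, and between the clusters led by Ngp and Ltf, matched after these values were seen, the shares were 36.1% (34.7 to 37.5) and 43.7% (40.2 to 47.2). Unnamed cells had 53.1% (52.3 to 53.8) in Co-Mac and 65.2% (64.7 to 65.7) in VD-Mac. Their shallow clusters with cell cycle genes had 40.5% (39.0 to 42.0) and 56.0% (54.9 to 57.1). In the graft, the share was 47.0% (44.8 to 49.3) in monocyte-like cells, 44.0% (40.9 to 47.0) in T-cell-like cells, 53.3% (50.8 to 55.9) in B-lineage-like cells and 35.1% (32.6 to 37.6) in fibroblast-like cells. Other graft classes with at least 50 cells thus ran from 34.6% to 53.3%, all below the DC-like cells. The name of the B-lineage-like class is uncertain, since DC markers scored second there (1.64). Of the genes found in many of its cells, the leading ones included Cd209a and Flt3, DC lineage markers in the study, beside Igkc and Ighm.

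**Figure D2:**
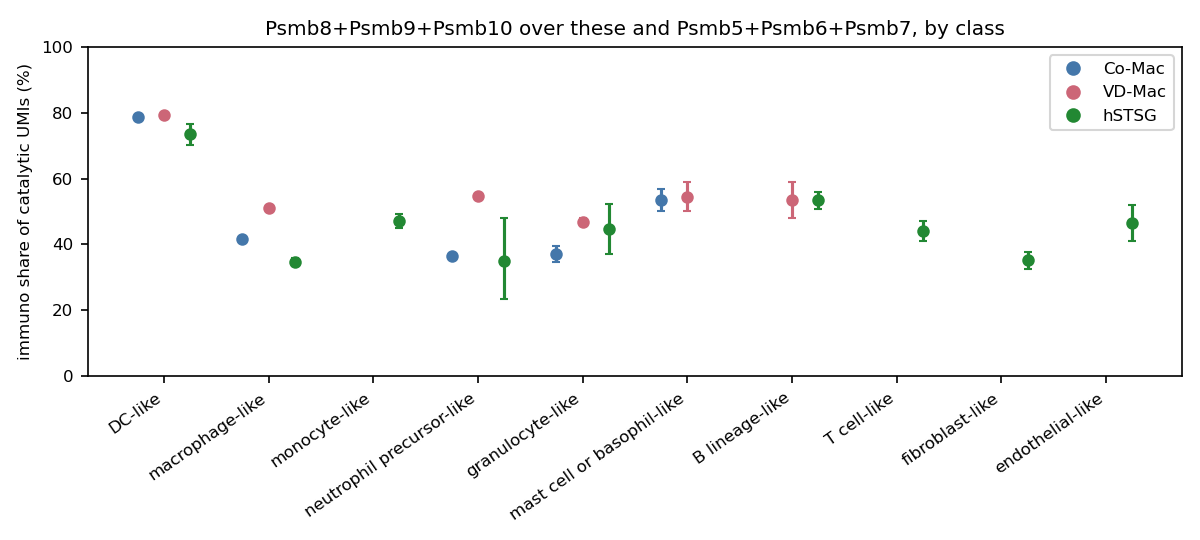
Share of catalytic UMIs from the immune forms Psmb8, Psmb9 and Psmb10 (y axis, percent) in each named cell class (x axis), coloured by library, with 95% exact intervals. DC-like cells sit highest, at 78.7%, 79.2% and 73.5%, and macrophage-like cells at 41.5%, 51.1% and 34.6%.

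Levels followed the same division. Psmb8 had 1053 CPM (1043 to 1063) in the DC-like cells of Co-Mac, 960 CPM (952 to 969) in those of VD-Mac and 769 CPM (690 to 855) in those of the graft. In macrophage-like cells it had 358 CPM (353 to 363), 461 CPM (451 to 470) and 125 CPM (118 to 133). Over the 16 named classes with at least 50 cells, Psmb8 varied the most of the 49 genes, from 26.2 CPM in the granulocyte-like cells of the graft to 1053 CPM, with an SD of 1.36 on the log2 scale. Psmb7 varied the least of the genes past 10 CPM, from 39.3 to 145 CPM with an SD of 0.41. Both ends of the range were thus catalytic genes, though of different pairs. These classes differ in depth and come from 3 libraries, so the SD describes them together and is no error.

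Summed over the 5 immunoproteasome genes, the level was 1612 CPM (1605 to 1619) in Co-Mac, 1837 CPM (1829 to 1845) in VD-Mac and 608 CPM (598 to 618) in hSTSG. The log2 ratio of VD-Mac to Co-Mac was 0.19 (0.18 to 0.20). The higher sum was not common to all classes, as the ratio was -0.30 (-0.31 to -0.29) in DC-like cells, 0.29 (0.26 to 0.31) in macrophage-like cells, 0.28 (0.19 to 0.38) in granulocyte-like cells and 0.53 (0.50 to 0.56) in neutrophil-precursor-like cells. Matched by leading genes after these values were seen, the mitotic clusters had a ratio of 0.37 (0.35 to 0.39). Those led by Ngp and Ltf had one of -0.27 (-0.40 to -0.15). Most precursor cells of VD-Mac were of its mitotic cluster, while the larger precursor cluster of Co-Mac, led by Prtn3 and Elane, was also high in Mki67. Between that cluster and the mitotic one of VD-Mac, each of the 5 genes was higher in VD-Mac, with Psmb8 at 349 and 574 CPM. With the classes of VD-Mac weighted as in Co-Mac the ratio of the whole libraries turned to -0.03, and with the mean over cells it was 0.06. The direction of the sum over the whole library therefore did not hold under this weighting, and the part of cell make-up in it was not tested. Since the mitotic clusters took different names, the macrophage-like and precursor classes were also joined before weighting, an alternative added after the data were seen, and the ratio was then -0.02.

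Within the DC-like class the 5 genes divided. Psme1 had 681 CPM in Co-Mac and 482 CPM in VD-Mac, a log2 ratio of -0.50 (-0.52 to -0.47), and Psme2 715 and 448 CPM, a ratio of -0.68 (-0.70 to -0.65). Psmb10 had 176 and 133 CPM (ratio -0.40) and Psmb8 1053 and 960 CPM (ratio -0.13). Psmb9 was the gene of the 5 that was higher in the DC-like cells of VD-Mac, with 346 and 394 CPM and a ratio of 0.18 (0.15 to 0.22). Psmb5 was lower as well, with 201 and 168 CPM, beside immune shares of 78.7% and 79.2%. The median over all 6657 genes measured in this class was 0.07, so the other 4 lie on the far side of it.

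In macrophage-like cells all 3 immune catalytic genes were higher in VD-Mac. Psmb8 had 358 and 461 CPM (log2 ratio 0.36), Psmb9 90.9 and 132 CPM (0.54) and Psmb10 96.3 and 142 CPM (0.56). Psme1, with 213 and 214 CPM, had a ratio of 0.01 (-0.04 to 0.06), and Psme2, with 187 and 204 CPM, one of 0.12 (0.07 to 0.18). Part of the macrophage-like class of Co-Mac was a cluster led by mitosis genes, while the mitotic cluster of VD-Mac took the neutrophil-precursor name. After these values were seen, the non-mitotic macrophage-like clusters were therefore compared with each other. Their immune shares were 34.6% in Co-Mac and 51.1% in VD-Mac, and the log2 ratio was 1.07 (0.98 to 1.17) for Psmb9, 0.68 (0.63 to 0.73) for Psmb8 and 0.50 (0.42 to 0.58) for Psmb10. So the higher immune share in VD-Mac was larger, not smaller, in macrophage-like cells outside the mitotic cluster. The median over all genes in the macrophage-like class was -0.17.

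Psme1 and Psme2 encode PA28 alpha and beta, which together form a ring that opens the barrel without ubiquitin and is known to rise with interferon. Over whole libraries Psme1 had 364 CPM in Co-Mac, 351 CPM in VD-Mac and 192 CPM in hSTSG. Psme2 had 360, 332 and 138 CPM. Their levels were close to each other in both cultures and further apart in the graft. The log2 ratio of VD-Mac to Co-Mac was -0.05 (-0.07 to -0.03) for Psme1, which turned positive in 3 alternatives, and -0.12 (-0.14 to -0.10) for Psme2. Over whole libraries the PA28 genes therefore did not share the higher level of the immune catalytic forms in VD-Mac. In the non-mitotic macrophage-like clusters they did, with ratios of 0.23 (0.17 to 0.30) for Psme1 and 0.26 (0.19 to 0.33) for Psme2. Psme2b, a near copy of Psme2, stayed under 10 CPM in the cultures, with 6.27 and 5.99 CPM, and had 12.6 CPM in the graft.

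Psme3, PA28 gamma of the nucleus, had 51.7 CPM (50.5 to 52.9) in Co-Mac, 33.3 CPM (32.3 to 34.4) in VD-Mac and 46.0 CPM (43.3 to 48.9) in hSTSG. Its log2 ratio of VD-Mac to Co-Mac, -0.63 (-0.69 to -0.58), was the lowest of the activators. By class it was -0.65 (-0.77 to -0.54) in macrophage-like cells, -0.82 (-0.93 to -0.71) in neutrophil-precursor-like cells and 0.05 (-0.09 to 0.18) in DC-like cells. Psme4, the PA200 activator, had 36.0, 33.4 and 79.1 CPM, and its ratio between the cultures of -0.11 turned to 0.03 with the mean over cells and to 0.01 with weighted classes. So the activator genes differed from one another in both comparisons. Psmf1, an inhibitor of the barrel, had 20.8, 21.9 and 12.8 CPM.

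Chaperones that build the barrel were less abundant than most of its subunits. Psmg1 had 26.8 CPM in Co-Mac and 23.2 CPM in VD-Mac, and Psmg3 35.8 and 30.0 CPM. In hSTSG each of them had 294 UMIs, a level between 11.5 and 14.6 CPM. Psmg2 had 19.7, 16.6 and 10.2 CPM. Psmg4 stood above them with 125, 124 and 42.3 CPM, and the interval of its ratio between the cultures, -0.04 to 0.03, included 0. Of the chaperones of the cap, Psmd5 had 29.6, 20.6 and 12.5 CPM and was over 20% lower in VD-Mac. The other two, Psmd9 and Psmd10, lay between 34.9 and 44.3 CPM in the cultures. Genes of tissue-specific barrels were close to absent, as Psma8, of the testis, had 210, 162 and 11 UMIs in the 3 libraries and Psmb11, of the thymus, at most 2.

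Levels in the graft were compared within the macrophage-like class, with Co-Mac as the reference. Graft cells were freshly digested from tissue and Co-Mac cells were cultured, so tissue, handling and library cannot be told apart. At least 2-fold higher in the graft was 1 of 46 genes, Psme4, beside 16.8% of 8227 genes, and at least 2-fold lower were 9 of 46, beside 20.3% of genes. Those 9 were Psma1, Psma4, Psma6, Psmb2, Psmb5, Psmb8, Psmd5, Psmg1 and Psmg3. The lower count is near the share over all genes. Without the mitotic cluster, which holds 1003 of the 1979 Co-Mac cells, an alternative added after the data were seen, 0 were higher and 7 lower, beside 18.0% and 14.6% of 7900 genes, with Psme4, Psma1 and Psmg1 just inside 2-fold. Over the 31 barrel and cap subunits the median log2 ratio was -0.56, with 28 below 0, beside -0.17 over all genes.

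Psmb2 had 261 CPM in the macrophage-like cells of Co-Mac and 104 CPM in those of the graft, a log2 ratio of -1.32 (-1.42 to -1.23). Psma4 had 295 and 129 CPM (ratio -1.19) and Psma1 206 and 100.5 CPM (ratio -1.04). Of the barrel without its catalytic genes, these lay lowest. Psmd1 had 109 and 183 CPM, a ratio of 0.75 (0.67 to 0.83), and Psmd2, its fellow scaffold of the cap, 140.0 and 158 CPM, a ratio of 0.17 (0.09 to 0.26). Psmd4 had 102 and 106 CPM, with a ratio of 0.06 (-0.04 to 0.16) that includes 0. The scaffold subunits Psmd1 and Psmd2 were thus higher in the graft while the barrel was lower. Among the catalytic genes, Psmb8 had a ratio of -1.51 (-1.60 to -1.42) and Psmb5 of -1.18, while Psmb6 had -0.05 (-0.12 to 0.01) and Psmb10 -0.12 (-0.23 to -0.01). Psmb9 had 90.9 and 65.9 CPM, a ratio of -0.46 (-0.59 to -0.34), but one of 0.07 (-0.07 to 0.22) without the mitotic cluster of Co-Mac. Both genes of the pair Psmb5 and Psmb8 were thus more than 2-fold lower, and the other standard forms were not. Psme4 had 41.7 and 87.7 CPM, a ratio of 1.07 (0.95 to 1.19).

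Granulocyte-like cells of the graft held few proteasome transcripts. Their 31 barrel and cap subunits summed to 550 CPM (507 to 594), against 6242 CPM (6105 to 6382) in granulocyte-like cells of Co-Mac and 5966 CPM (5894 to 6038) in those of VD-Mac. The 5 immunoproteasome genes summed to 182 CPM (158 to 208), 979 CPM (925 to 1035) and 1193 CPM (1160 to 1225). Median depth of these cells was similar, at 2264, 2078 and 2837 UMIs. The catalytic share of the graft cells, 44.5% (37.0 to 52.2), rests on 173 UMIs. This class held 22.1% of the graft cells, and 44 of the 49 genes had their lowest level there among the 16 classes.

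Psmd13, a subunit in the lid of the cap, is the proteasome gene that the study names, for the macrophage cluster of the graft that it calls least distinct, which it also describes as low in Mertk and Cd86. Over whole libraries it had 128 CPM (126 to 130) in Co-Mac, 109 CPM (108 to 111) in VD-Mac and 83.4 CPM (79.7 to 87.3) in hSTSG. The macrophage-, monocyte- and DC-like cells of the graft, with 1 unnamed cluster whose best score was for macrophages, were clustered again into 7 clusters. Psmd13 was highest in a cluster of 126 cells, at 276 CPM (218 to 344), and lay between 73.4 and 120 CPM in the other 6. Its log2 ratio to the other clusters was 1.55 (1.20 to 1.89). The 16 other cap subunits had a median of -0.10 there and went both ways, all below Psmd13. Intervals lay above 0 for Psmd2 at 0.78 (0.43 to 1.12), Psmc1 at 0.71 (0.14 to 1.24) and Psmd4 at 0.63 (0.18 to 1.04). They lay below 0 for Psmd7 at -1.23 (-2.24 to -0.39) and Psmd14 at -1.02 (-2.15 to -0.08). Part of the cap was thus also higher in this cluster, by less than Psmd13.

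That cluster was set apart by more than Psmd13. Its median depth was 1767 UMIs, against 8570 to 16061.5 in the other 6 clusters, and its value rests on 78 UMIs of Psmd13 in 48 cells. The 4 erythroid markers led its genes, with Hbb-bs, Hba-a1, Hba-a2 and Hbb-bt summing to 62669 CPM, against 24.5 to 62.1 CPM in the others. Of its cells, 87.3% came from the unnamed cluster. Psmd13 was also higher in shallow cells of the cultures, with 184 CPM (152 to 220) in Co-Mac cells of 1000 to 2000 UMIs and 96.4 CPM (92.7 to 100.2) in those of 8000 to 16000, a division into depth ranges made after the cluster was seen. In the deepest Co-Mac cells, of 32000 to 100000 UMIs, it had 140 CPM (136 to 143). In VD-Mac the 3 values were 175 CPM (153 to 200), 94.3 CPM (91.2 to 97.4) and 108 CPM (104 to 113). Over all graft cells the same ranges gave 83.8 CPM (56.6 to 120), a level between 82.6 and 97.9 CPM, and 70.8 CPM (63.9 to 78.2), while the 78 cells under 1000 UMIs had 219 CPM (113 to 382) on 12 UMIs. The other cap subunits had a median of 123 and 79.3 CPM in Co-Mac cells of 1000 to 2000 and of 8000 to 16000 UMIs. The immune share in these Co-Mac ranges was 41.5% and 72.2%, and in the same ranges of VD-Mac 53.6% and 73.2%. Psmd13 had 69.9 CPM in DC-like cells of Co-Mac, the class with the highest immune share there. Granulocyte-, macrophage- and neutrophil-precursor-like cells of Co-Mac had 125, 150 and 179 CPM. Depth and cell class were therefore not told apart in these ranges. The part of depth, of cell class and of erythroid RNA in the value of the graft cluster was not tested.

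**Figure D3:**
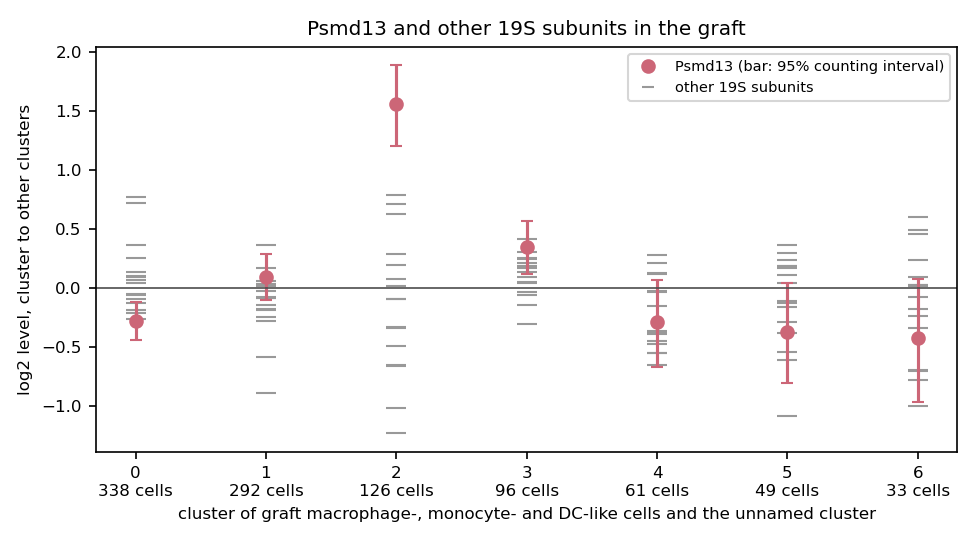
Log2 ratio of the level in a cluster to the other clusters (y axis) for Psmd13 (points, 95% counting interval) and the 16 other cap subunits (dashes) in 7 clusters of macrophage-, monocyte- and DC-like graft cells and the unnamed cluster (x axis, with cell numbers). Psmd13 stands above the other subunits in cluster 2, at 1.55, a cluster led by haemoglobin genes.

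Under other settings the cluster led by haemoglobin genes still had the highest Psmd13, with log2 ratios of 0.96 at resolution 0.3, 1.53 at 0.8, 1.16 with 30 principal components and 1.08 without doublets. Without the unnamed cluster, an alternative added after the data were seen, the highest level was in a cluster of 57 cells led by Cd163, a scavenger receptor of macrophages, at 121 CPM (102 to 143) and a ratio of 0.48 (0.22 to 0.74). Psmd13 had the highest ratio of the cap subunits there too, just above Psmd3 at 0.47. A cluster of 230 cells was then led by haemoglobin genes, at 2179 CPM, and its Psmd13 ratio of -0.03 (-0.26 to 0.20) included 0.

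Other genes of the pathway were read from lists given with the processing. Of 11 measured genes that build the particle or bind to it, 0 were higher in VD-Mac by the same step and 3 lower, with a median log2 ratio of -0.24: Usp14, a cap enzyme that trims ubiquitin, at -0.63, Zfand5 at -0.42 and Akirin2, which carries the particle into the nucleus, at -0.34. Pomp, the chaperone of barrel maturation, had 417, 438 and 230 CPM in Co-Mac, VD-Mac and hSTSG. Of the 4 genes around Nfe2l1, the factor that renews proteasome transcripts under stress, 0 were higher and 2 lower, with Ddi2 at -0.43, Nfe2l2 at -0.40 and Ngly1 at 0.30. Of 12 genes of ubiquitin supply and delivery, 2 were higher and 4 lower (median -0.12), with Vcp at -0.53 and Rad23b, which brings substrates to the cap, at -0.72. Beside the 14.2% higher and 27.9% lower among all genes, these lists do not stand apart.

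Downstream of the immunoproteasome, genes of MHC class I processing were divided between the cultures. Of 12 genes of class I processing, 5 were at least 25% higher in VD-Mac and 3 at least 20% lower, beside 14.2% and 27.9% of all genes, with a median of 0.19 beside -0.10. Tap2, a chain of the peptide transporter, had 46.9 and 89.9 CPM (log2 ratio 0.94), H2-K1 962 and 1799 CPM (0.90) and the chaperone Calr 568 and 296 CPM (-0.94). In hSTSG, B2m had 2978 CPM against 1355 CPM in Co-Mac, although Psmb8 was lower there. In DC-like cells B2m had 2591 CPM in Co-Mac and 2752 CPM in VD-Mac and Tap1 104 and 135 CPM, although Psmb8 and Psmb10 were lower in those of VD-Mac. High B2m and high Psmb8 therefore did not always go together.

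Interferon response genes past the step were mostly higher in VD-Mac. Of 19 response genes, 8 reached 10 CPM in a culture, and of these 4 were at least 25% higher and 1 at least 20% lower in VD-Mac, beside 14.2% and 27.9% of all genes, with a median of 0.31 beside -0.10. Gbp2 had 64.0 and 207 CPM (1.70), Irf8 133 and 307 CPM (1.21) and Ciita, the switch for MHC class II, 46.2 and 18.0 CPM (-1.36). Irf1, a factor induced by interferon, had 23.7 CPM in Co-Mac, 34.6 CPM in VD-Mac and 114 CPM in hSTSG. In the graft it was above the cultures while Psmb8 and Psmb9 were below them. Ifng had 0 UMIs in both cultures, which allows up to 0.0226 CPM in Co-Mac and 0.0258 CPM in VD-Mac, and 2.21 CPM in hSTSG. Of its graft UMIs, 47 lay in T-cell-like cells. Ifnb1 had 0, 1 and 2 UMIs in the 3 libraries.

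Cell cycle and stress genes also differed between the libraries. Of 10 cell cycle genes, 7 were at least 20% lower in VD-Mac and 0 higher, beside 27.9% and 14.2% of all genes (median -0.46 beside -0.10), with Mcm3 at -0.84, Pcna at -0.65 and Ccna2 at -0.49, and the list summed to 772, 586 and 255 CPM in Co-Mac, VD-Mac and hSTSG. Of the 7 heat shock and handling genes past 10 CPM, 4 were higher and 1 lower (median 0.46), with Hsph1 at 0.98, Jun at 0.80 and Fos at 0.60. That list summed to 2198, 1941 and 6677 CPM, and Hspa1a, the inducible heat shock protein, had 0.734, 1.20 and 734 CPM. Their part in the proteasome values was not tested.

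Over the 16 named classes with at least 50 cells, the mean log2 level of the 5 immunoproteasome genes ran from 5.00 in granulocyte-like graft cells to 8.97 in DC-like cells of Co-Mac. Of the standard subunits, Psmb1 had the pattern most like it, with a Pearson r of 0.84, and Psmd1 the least, with 0.29. Of the other members, Psmg4 had an r of 0.91, the highest outside the 5 genes, and Psme4 an r of -0.02. Of 6303 genes compared, which left out the 5 but not the other members, the 10 most alike all lay outside the family. They were Polr3c (0.96), Tyk2 and Ap3b1 (0.94), Fam98c (0.93), Faf1, Grk3, Rnaset2a and Sugt1 (0.92), Higd2a (0.91) and Asl (0.91). The classes share libraries and differ in depth, so r describes an order of classes and has no p.

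Several of the immune genes lie side by side in the genome. By gene ID in GENCODE M21 (build GRCm38), Psmb9 lies at chr17:34181987-34187764 on the minus strand and Psmb8 at chr17:34197721-34201454 on the plus strand, with the transporter gene Tap1 between them. Psme1 at chr14:55578123-55581529 (plus) and Psme2 at chr14:55587441-55591113 (minus) form another pair, and Psmb10 lies apart at chr8:105935735-105938444 (minus). Neighbours did not always move alike, since Psmb9 and Psmb8 had log2 ratios of 0.68 and 0.33 between the cultures.

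Promoters, taken as 250 bases before to 50 after the start in RefSeq (GRCm38.p6), were found for 41 of the 49 genes and searched on both strands for short motifs. TTCNNNGAA, the letters of the interferon gamma element GAS, occurs in 8.30% of all 32851 promoters, GAAANNGAA, a core of the interferon element ISRE, in 8.56%, and TGACNNNGC, a core of the antioxidant element, in 12.4%. Of the 5 immunoproteasome genes, Psmb8 held the GAS letters, Psme1 the ISRE core and 0 the antioxidant core. Of 36 other genes of the family, 2 held GAS (Psmd2 and Psmg1), 6 the ISRE core and 6 the antioxidant core. With so few matches, the immune genes did not stand apart from the rest of the family in these letters. The sequences of 3 promoters are shown, because Psmb8 and Psmb9 were the genes over 25% higher in VD-Mac and Psme1 holds the other match, with capitals for the matches. Psmb8, chr17:34197945-34198244, plus strand, has GAS letters starting 97 bases before the start of the transcript. Psmb9, chr17:34187281-34187580, minus strand, has no match for these letters, and 275 of its bases are shared with the promoter of Tap1, read from the other strand. Psme1, chr14:55578244-55578543, plus strand, has the ISRE core on the other strand, beginning at base 11 after the start. All 3 starts lie inside the span of the gene in GENCODE. A match is a run of letters and not a shown site.
Psmb8: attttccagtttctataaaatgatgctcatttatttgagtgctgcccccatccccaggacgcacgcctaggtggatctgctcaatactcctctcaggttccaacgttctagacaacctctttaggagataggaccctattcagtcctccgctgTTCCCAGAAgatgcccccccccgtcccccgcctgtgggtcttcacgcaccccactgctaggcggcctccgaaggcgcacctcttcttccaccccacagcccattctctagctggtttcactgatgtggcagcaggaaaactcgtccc
Psmb9: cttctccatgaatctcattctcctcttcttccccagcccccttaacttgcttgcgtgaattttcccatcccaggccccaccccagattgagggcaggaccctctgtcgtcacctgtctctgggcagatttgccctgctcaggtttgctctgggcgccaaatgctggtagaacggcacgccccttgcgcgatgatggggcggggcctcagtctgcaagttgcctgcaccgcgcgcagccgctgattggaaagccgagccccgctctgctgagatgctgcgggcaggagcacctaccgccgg
Psme1: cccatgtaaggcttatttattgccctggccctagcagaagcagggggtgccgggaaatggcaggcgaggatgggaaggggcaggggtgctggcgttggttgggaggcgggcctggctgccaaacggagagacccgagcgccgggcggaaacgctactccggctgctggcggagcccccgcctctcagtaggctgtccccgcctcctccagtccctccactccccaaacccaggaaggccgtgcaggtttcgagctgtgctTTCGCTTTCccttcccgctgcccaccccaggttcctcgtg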

How the data were processed

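The authors deposited counts of unique molecular identifiers (UMIs) per gene and barcode for each of the 3 libraries, made with Cell Ranger (3.1.0 per the file headers) from 10x 3′ v3 libraries and not normalized. The labels name build mm9 and the study's methods GRCh38, while the gene list holds mouse Ensembl IDs; positions given here were looked up by gene ID in GENCODE M21. Barcodes with at least 300 genes, fewer than 100000 gene UMIs and under 10% mitochondrial UMIs were kept, and UMIs of hashtag antibodies were left out.

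CPM is the count of a gene over all gene UMIs of the summed cells. The 95% intervals are exact: levels have Poisson limits, shares binomial ones by Clopper and Pearson, and ratios those of a binomial given the total; the steps were tested on simulated data. No test was possible with 1 library per group. Genes were counted at 25% higher or 20% lower and at 2-fold, given 10 CPM or more in the library with the higher level, beside the same share over all genes with at least 10 CPM in either library.

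Each library was clustered with Seurat 5.3.0 (R 4.3.3, Matrix 1.6.5): log normalization to 10000, 2000 variable genes without 129 members and list genes, 15 principal components, 15 neighbors, resolution 0.5. The cell type markers were not left out, so genes used for naming could also shape the clusters. Clusters were named by the markers whose log2 ratio to the other cells of the library (5 CPM added) was on average highest, if at least 3 markers had 3 UMIs and the mean was at least 0.5, unless more markers of another set were among its 10 leading genes, or the cluster was shallow and had none of its own there. This way of naming was chosen with the clusters in view. Scrublet ran in scanpy 1.11.5; other steps used Python 3.11.15, numpy 2.4.6, scipy 1.17.1, pandas 2.3.3 and matplotlib 3.10.9.

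The members and lists were chosen with earlier results of these data known. Named genes were the catalytic, activator and barrel chaperone genes and Psmd13; of other barrel and cap subunits with at least 50 CPM in a culture, the 3 highest and the 3 lowest in each comparison; of each list, the 3 with the largest log2 ratio in size; and the 10 genes most alike over classes. Further genes were named after their values were seen, and 2 genes of the lists are not reported here. Lists covered genes that assemble or bind the particle (of 13, Ecpas and Paaf1 are not among the features), the Nfe2l1 axis, ubiquitin (Ufd1l is not among the features), class I processing, interferon response and ligands, cell cycle, and heat shock and handling. Alternatives covered cell filters, doublets, scaling, mean over cells, class make-up, low-level filters and clustering settings.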

Additional observations from a re-analysis of the deposited data

Results flagged for a closer look

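In the DC-like and the macrophage-like cells, some of the immunoproteasome genes differed in opposite directions between the cultures. The log2 ratio of VD-Mac to Co-Mac of the 5 genes summed was -0.299 in DC-like cells and 0.286 in macrophage-like cells. For Psmb8 it was -0.133 and 0.364, for Psmb10 -0.403 and 0.564, and for Psme2 -0.676 and 0.123. The other 2 of the 5 were not flagged: Psmb9 was higher in VD-Mac in both classes, at 0.18 and 0.54, and Psme1 had -0.50 and 0.01, where the interval of the latter includes 0, although it was 0.23 (0.17 to 0.30) in the macrophage-like clusters without the mitotic one. Each class is 1 set of cells from 1 library per culture, so the difference between the classes was not tested. That these classes and genes would be set side by side was decided after the values were seen.

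Hashtag antibodies gave 735057 UMIs in the kept cells of hSTSG and 0 in those of the cultures. They were not used, since no map from hashtags to mice is given.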

How the results depend on the processing

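No paired analysis was possible because each condition is 1 library. The sign of Psmb8, Psmb9 and Psmb10 between the cultures held under every alternative, from 0.12 to 0.42, from 0.38 to 0.77 and from 0.05 to 0.22. Over the 46 single genes, 168 values stayed within their interval, 224 moved without a change of sign and 22 changed sign. The cause of these changes was not tested, and depth limits the small graft classes.

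The log2 ratio of the sum of 5 immunoproteasome genes was 0.20 under 5% mitochondrial UMIs, 0.17 over all deposited barcodes, 0.17 without doublets by score, 0.27 with median-gene scaling, 0.28 without mitochondrial and ribosomal genes, 0.0634 as the mean over cells, and reversed to -0.0265 with the classes of VD-Mac weighted as in Co-Mac and to -0.0176 when the macrophage-like and neutrophil-precursor-like classes were joined before weighting (joined classes), an alternative added after the data were seen. In the same order, the median over barrel and cap subunits was -0.21, -0.24, -0.24, -0.15, -0.14, -0.11, -0.19 and -0.145. Lower genes numbered 6 with the mean over cells and with joined classes and 7 with weighted classes. Higher genes numbered 1 over all deposited barcodes, without doublets, with the mean over cells, with weighted classes and with joined classes. Shares over all genes are not given for these settings, so the counts are not set against them. In the graft comparison, higher genes numbered 0 and lower genes 7 of 46 without the mitotic cluster of Co-Mac (18.0% and 14.6% of all genes), also added after the data were seen.

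The sign turned for Psmb2 (0.00715 without mitochondrial and ribosomal genes, 0.0706 with the mean over cells, 0.0249 with joined classes), Psmb4 (0.00281 without mitochondrial and ribosomal genes, 0.0159 with the mean over cells), Psmd4 (-0.0869 with weighted classes, -0.0671 with joined classes), Psmd9 (0.00767 with median-gene scaling, 0.0202 without mitochondrial and ribosomal genes, 0.142 with the mean over cells, 0.0263 with weighted classes, 0.0662 with joined classes), Psme1 (0.00501 under 5% mitochondrial UMIs, 0.0324 with median-gene scaling, 0.045 without mitochondrial and ribosomal genes), Psme4 (0.0305 with the mean over cells, 0.00599 with weighted classes), Psmg1 (0.0431 with the mean over cells, 0.027 with joined classes) and Psmg4 (0.0601 under 5% mitochondrial UMIs, 0.0775 with median-gene scaling, 0.0901 without mitochondrial and ribosomal genes).

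The immune share was 57.4% in Co-Mac and 67.1% in VD-Mac under 5% mitochondrial UMIs, and 67.0% in VD-Mac without doublets. In macrophage-like cells of Co-Mac it was 34.6% at resolution 0.3, 42.4% with 30 principal components and 39.0% without doublets; in those of VD-Mac 54.2% at resolution 0.8 and 54.7% without doublets; in DC-like cells of Co-Mac 80.5% without doublets. The graft had no DC-like cluster at resolution 0.3 or without doublets, so no value is given. The highest log2 ratio of Psmd13 in a graft cluster was 0.96 at resolution 0.3, 1.16 with 30 principal components, 1.08 without doublets and 0.48 without the unnamed cluster, the last added after the data were seen.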
